A study of Mus musculus with 6 samples.

Results

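The ephrins, Eph receptors, semaphorins, plexins and neuropilins were measured in mouse embryos that carry 1 working copy of Tcof1 and in their wild-type littermates. Members were all probe sets whose platform annotation names exactly 1 gene, with a symbol of one of these families. They came to 124 of the 45037 probe sets that are not array controls and stood for 53 of 18193 named genes. Of these, 13 were Eph receptors, 8 ephrins, 20 semaphorins, 2 neuropilins and 10 were annotated under a plexin symbol. Among the last was Plxna4os1, an antisense transcript and not a plexin, which the symbol rule takes in. Total RNA came from 3 wild-type and 3 Tcof1+/- embryos at embryonic day 8.5, each on an Affymetrix mouse whole-genome array of its own after amplification in 2 cycles from 100 ng of RNA. Tcof1 encodes treacle, a nucleolar protein of ribosomal RNA synthesis, and mutations of its human counterpart underlie Treacher Collins syndrome, a disorder of the bones of the face, which are built from neural crest. The strain and the construction of the allele are not given in the labels. RNA came from whole embryos, so fewer cells of a type and less RNA per cell cannot be told apart in any value below.

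Guidance molecules repel or attract moving cells, axons and growing vessels. Eph receptors are receptor tyrosine kinases, and their ligands, the ephrins, stay bound to the neighbouring cell, so that signals pass both ways when the cells touch. A ephrins are held by a lipid anchor and B ephrins span the membrane. In the embryo of this stage they keep hindbrain segments and streams of cranial neural crest apart and separate arteries from veins. Semaphorins are secreted or membrane-bound ligands, and plexins are their signalling receptors. Secreted class 3 semaphorins mostly need a neuropilin as the binding partner of an A plexin, and neuropilins also bind vascular endothelial growth factor.

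The unit of measurement was the signal of a probe set, which sums up several short probes against 1 transcript, here in arbitrary units on a linear scale with the same trimmed mean, 150, on every array. Differences are log2(signal + 1.87), heterozygous minus wild type, fitted with limma over all 27022 probe sets bright enough to be tested, and adjusted p-values are by the Benjamini-Hochberg method over all of them. Intervals are 95% intervals of the same fit, without adjustment. The value of a gene is that of its probe set with the highest mean over the 6 arrays, and signals of different probe sets are not compared with each other. Tcof1 itself gave 382, 393 and 387 in the wild types and 222, 179 and 231 in the heterozygotes. Replicates 1 and 2 of each genotype shared a first scan day, and replicate 3 of each was scanned on a second. The signal of Xist, the RNA of the inactive X chromosome, was high in wild-type embryos 1 and 2 and heterozygous embryo 1 (1520 to 2358) and low in the other embryos (25.1 to 33.6), so the genotypes were unequal in sex. The log2 difference between the 3 prime and 5 prime Gapdh control probe sets, a measure of RNA quality, was 0.84 to 1.04 in wild types and 0.68 to 0.81 in heterozygotes.

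No guidance gene passed the test in either direction. Of the 124 probe sets 87 were bright enough, standing for 44 genes, and 0 of 87 had a limma adjusted p under 0.05, where 0.0814% of all tested probe sets did (0.0777% higher and 0.0037% lower). The lowest adjusted p of a member was 0.457, for Nrp1. At an unadjusted p under 0.05 there were 7 members (3 higher, 4 lower), or 8.05% against 6.22% of all tested probe sets (3.01% higher and 3.21% lower). The genotypes did not overlap on 8 member probe sets, 4 higher and 4 lower, or 9.20% against 12.2% of all (6% higher and 6.18% lower). These shares lie near those of all probe sets on the array. By gene, 18 differences were positive and 26 negative with a median of -0.07, beside a median of -0.01 and 47.3% positive over 12853 named genes; by probe set 37 of 87 members were positive, and 50.9% of all.

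At the level of genes 0 of 44 were called by limma, where 0.124% of named genes were (0.117% higher and 0.00778% lower). At an unadjusted p under 0.05 there were 2 higher (Nrp1 and Sema3e) and 2 lower (Sema3f and Ephb4), against 6.89% of named genes (3% higher and 3.89% lower). The genotypes did not overlap for 6 of 44 genes, 3 higher (Nrp1, Nrp2 and Sema3e) and 3 lower (Sema3a, Sema4d and Efna5), against 13% of named genes (5.7% higher and 7.31% lower). The median of the 44 genes relative to the wild-type mean was -0.02, 0.00 and 0.03 among the wild types (replicates 1 to 3). Among the heterozygotes it was -0.05, -0.07 and -0.03, beside 0.0006, -0.020 and 0.005 over all named genes. The wild types lie around 0 by construction, since their own mean is the reference.

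The intervals, which are not adjusted for the number of genes, give how large a difference these arrays leave room for. Those of 37 of 44 genes lay within 2-fold in either direction, and those of 40 included 0. The exceptions to the latter were Nrp1 and Sema3e, with intervals above 0, and Sema3f and Ephb4, with intervals below it. The median interval reached 1.34-fold to either side of its estimate, and the widest, that of Epha1, 2.59-fold. The narrowest was that of Efna5. Leaving out 1 array moved the log2 difference by over 1.5 times for 28 of 34 named genes; the other 6 were Nrp1, Nrp2, Sema3a, Sema3e, Sema3f and Plxna1.

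**Figure D1:**
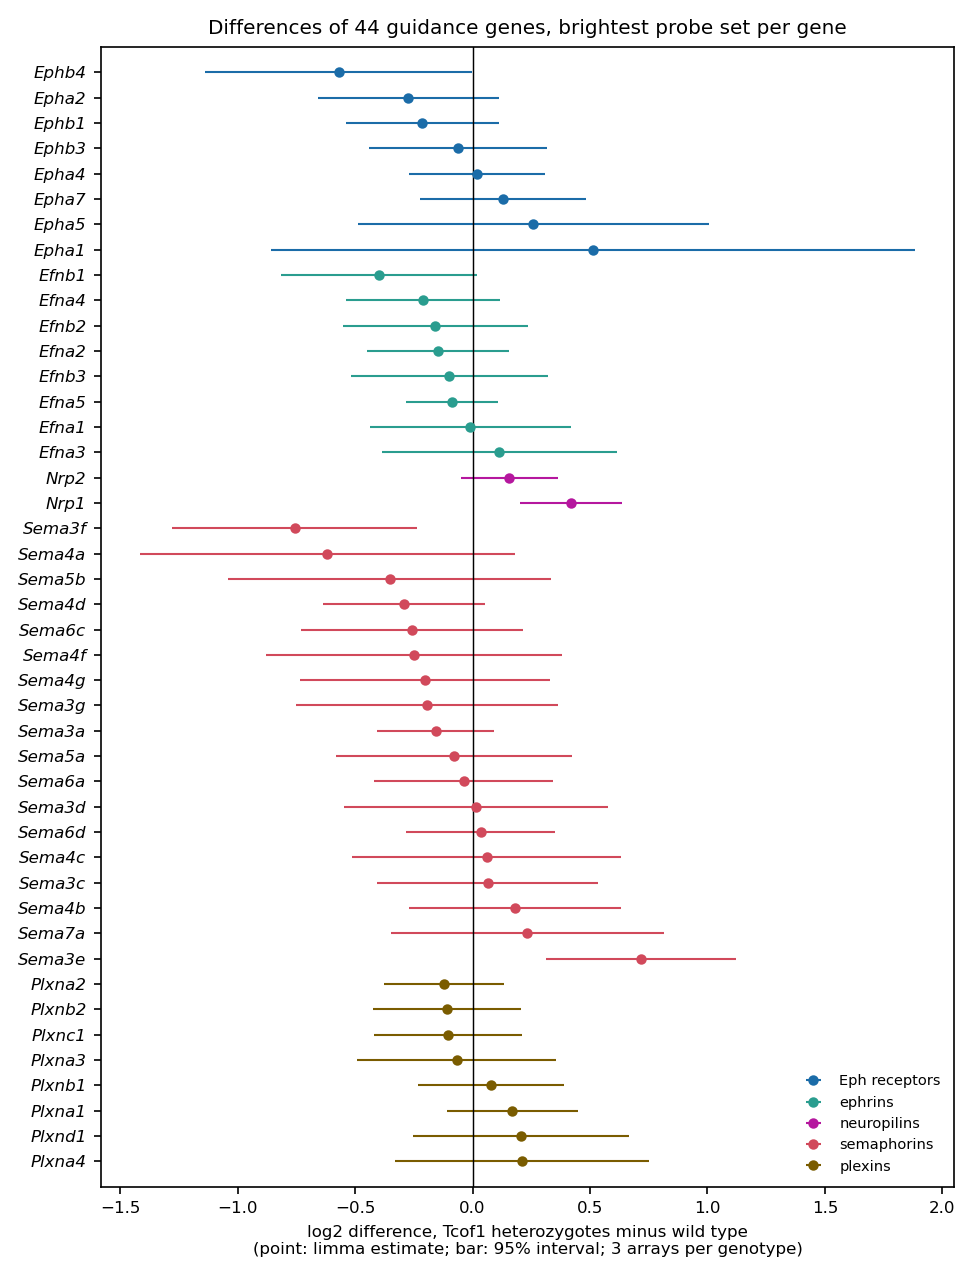
Log2 difference (x axis, heterozygous minus wild type) of the 44 tested genes, 1 row per gene, grouped and coloured by family; points are limma estimates on the brightest probe set, bars 95% intervals, 3 arrays per genotype. Bars of 40 genes cross 0; those of Nrp1 and Sema3e lie above it and those of Sema3f and Ephb4 below it.

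The neuropilins gave the most even pattern among the families, with positive differences on all 7 tested probe sets. Over all tested probe sets 50.9% were positive. Nrp1, the receptor that binds Sema3a and vascular endothelial growth factor, gave 777, 644 and 812 in the wild types, listed here and below as replicates 1, 2 and 3, and 954, 1016 and 1006 in the heterozygotes. All 3 heterozygotes lay above all 3 wild types. The means were 744 ± 88.7 and 992 ± 33.7 (SD, n = 3 per genotype), a log2 difference of 0.42 with an interval of 0.20 to 0.64 and a limma adjusted p of 0.457, so that the gene did not pass. Within scan days it was 0.48 (first) and 0.31 (second), and 0.32 to 0.49 when any 1 array was left out. The other 3 tested probe sets of Nrp1 differed by 0.07 to 0.17, each with overlap between the genotypes. On the second brightest, the values were 493, 447 and 607 against 652, 583 and 503, with wild-type embryo 3 above heterozygous embryos 2 and 3.

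Nrp2, the usual partner of Sema3f, gave 341, 374 and 346 in wild types and 377, 407 and 399 in heterozygotes. These ranges did not overlap but lay close together. The log2 difference was 0.16 with an interval of -0.05 to 0.36 and a limma adjusted p of 0.832. A second probe set gave 157, 158 and 143 against 167, 186 and 219, again without overlap, with a difference of 0.31 and an adjusted p of 0.789. The dimmest tested probe set differed by 0.07 and the genotypes overlapped. Probe sets of 1 gene read the same 6 embryos and are not independent of each other.

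Class 3 semaphorins, the secreted ligands of these receptors, differed in both directions. Sema3e, which binds Plxnd1 directly and keeps growing vessels out of the somites, gave 107, 97.4 and 152 in wild types and 216, 197 and 168 in heterozygotes. Every heterozygote was above every wild type, with wild-type embryo 3 and heterozygous embryo 3, the arrays of the second scan day, nearest to each other. The means were 119 ± 29.2 and 194 ± 24.1 (SD, n = 3 per genotype), and the log2 difference of 0.72, with an interval of 0.31 to 1.12, had a limma adjusted p of 0.584. Between embryos of the first scan day it was 1.003, and between those of the second 0.14. The other tested probe sets of Sema3e differed by 0.32 and 0.36. Both overlapped and turned sign between the days, from 0.66 to -0.36 and from 1.09 to -1.10.

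Sema3f, a repellent of neural crest and axons that acts through Nrp2, had the largest negative difference of the 44 genes. The values were 960, 1472 and 1557 in wild types and 1119, 622 and 653 in heterozygotes. Heterozygous embryos 2 and 3 were below all wild types, whereas heterozygous embryo 1 was above wild-type embryo 1. The log2 difference was -0.76 with an interval of -1.28 to -0.24 and a limma adjusted p of 0.685. This is an x_at probe set, a type whose oligonucleotides can match other transcripts. The remaining tested probe sets of Sema3f gave signals of 12.1 to 50.9 and differed by 0.04 and -0.64, with overlap on both.

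Sema3a, the ligand of Nrp1 that repels crest and sensory axons, gave 211, 185 and 196 in wild types and 179, 177 and 174 in heterozygotes. The 3 heterozygotes lay close to each other and below all wild types. The log2 difference was -0.16 with an interval of -0.41 to 0.09 and a limma adjusted p of 0.853. The dimmer probe sets differed by -0.26 and -0.14, and both overlapped. Sema3c, which draws crest cells to the cardiac outflow tract, differed by 0.06, Sema3d by 0.01 and Sema3g, an endothelial semaphorin, by -0.19, each with overlap. Sema3b was too dim to be tested.

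The 3 stretches of RefSeq sequence show the region before the transcription start of the members that lay highest in heterozygotes without overlap on their brightest probe set, the neuropilins and Sema3e. They were chosen after their values were seen. Each is the 250 bases before the start, 5 prime to 3 prime on the plus strand of GRCm38.p6: chr8:128358823-128359072 for Nrp1, chr1:62703067-62703316 for Nrp2 and chr5:14025026-14025275 for Sema3e. Capitals mark GC boxes, GGGCGG on either strand.
Nrp1: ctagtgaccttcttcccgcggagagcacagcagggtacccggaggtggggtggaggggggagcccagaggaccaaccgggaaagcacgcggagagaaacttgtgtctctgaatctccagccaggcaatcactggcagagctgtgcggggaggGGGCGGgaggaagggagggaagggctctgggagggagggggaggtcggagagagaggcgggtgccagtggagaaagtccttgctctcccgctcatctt
Nrp2: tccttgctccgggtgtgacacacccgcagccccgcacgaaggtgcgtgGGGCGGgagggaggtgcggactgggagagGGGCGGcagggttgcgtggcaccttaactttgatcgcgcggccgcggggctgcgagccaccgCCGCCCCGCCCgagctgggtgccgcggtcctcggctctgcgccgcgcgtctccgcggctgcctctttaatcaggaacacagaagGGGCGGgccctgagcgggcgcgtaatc
Sema3e: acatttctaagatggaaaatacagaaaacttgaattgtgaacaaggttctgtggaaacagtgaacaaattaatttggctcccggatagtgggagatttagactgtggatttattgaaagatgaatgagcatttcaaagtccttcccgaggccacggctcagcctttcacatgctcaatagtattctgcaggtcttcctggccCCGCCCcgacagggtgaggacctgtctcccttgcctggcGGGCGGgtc
Nrp1 held 1 GC box, 98 bases before the start, and Sema3e 2, at 48 and 9 bases. Nrp2 held 5, at 202, 173, 111, 106 and 27 bases, of which those at 111 and 106 share 1 base. The CCAAT box (CCAAT), the E-box (CACGTG), the TATA box (TATAAA) and the p53 half-site, all searched on both strands, had no match in the 3 windows, which says only that these letters are not there.

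A start window was at hand for 46 of the 53 member genes, 60 windows in all. A GC box was found in 76.7% of them, against 56.3% of 13277 windows of tested genes and 32.7% of all 32851 windows. The windows of the members were also richer in G and C, with a median of 64.2% against 59.6% for tested genes. A TATA box was found in 1.67% of the members' windows (Efnb2 alone) against 6.85% for tested genes, a CCAAT box in 30% against 34.8%, and an E-box in 5% against 8.11%. The p53 half-site was in 5% (Efna4, Plxna3 and Sema4d) against 6.07%. A match is a description of the letters and does not show that a factor binds there.

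**Figure D2:**
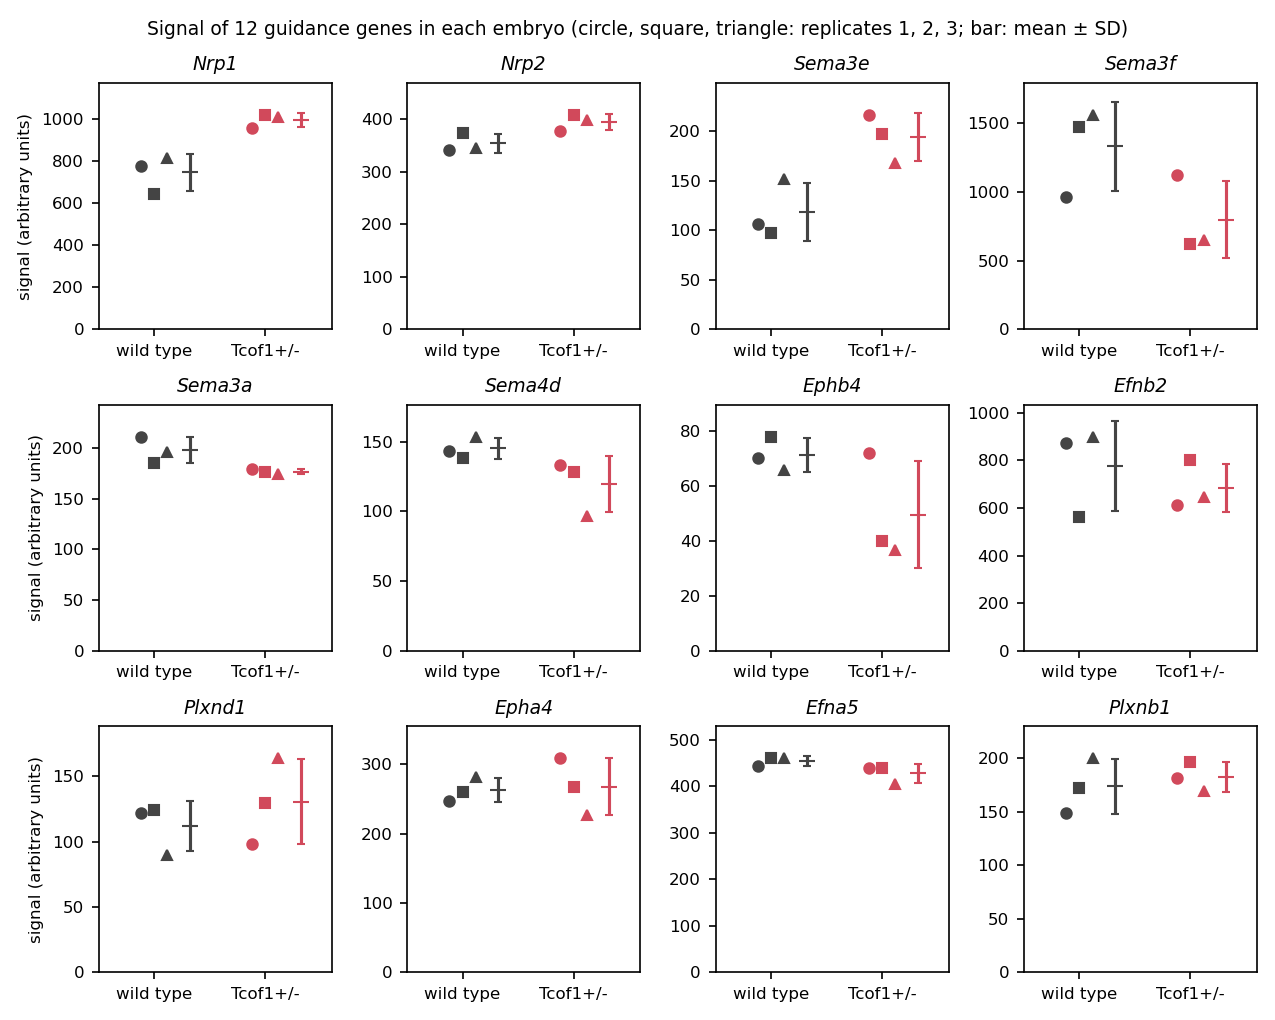
Signal (y axis, arbitrary units, from 0) of 12 genes in each embryo on the brightest probe set; circles, squares and triangles are replicates 1, 2 and 3, bars the mean ± SD of 3 embryos. Nrp1, Nrp2 and Sema3e were higher and Sema3a, Sema4d and Efna5 lower in all 3 heterozygotes, while the other 6 genes overlapped; none passed the test.

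No membrane-bound semaphorin passed the test. Of the 6 class 4 genes 4 were negative and 2 positive, with a median of -0.22, beside 47.3% positive over all named genes. Sema4d, the ligand of Plxnb1, gave 144, 138 and 154 in wild types and 134, 128 and 96.4 in heterozygotes. The groups did not overlap, with heterozygous embryo 3 the lowest. The log2 difference was -0.29 with an interval of -0.64 to 0.05 and a limma adjusted p of 0.814, and within scan days it was -0.11 (first) and -0.66 (second). Sema4a, a ligand of plexins on immune and endothelial cells, was dim and its probe sets disagreed. Like that of Sema3f, its brighter probe set is of the x_at type, which can match other transcripts. The brighter, which was higher in all 3 embryos with high Xist signal (29.8 to 37.5 against 11.96 to 26.9), gave 31.4 ± 5.50 and 21.1 ± 9.96 (SD, n = 3 per genotype), a difference of -0.62, and the dimmer gave 10.7 ± 5.89 and 19.0 ± 7.70, a difference of 0.77. Sema4b, Sema4c, Sema4f and Sema4g differed by -0.25 to 0.18, each with overlap.

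Classes 5, 6 and 7 spanned -0.35 to 0.23 over 6 genes, 4 negative and 2 positive, with limma adjusted p of 0.865 or more. Sema5b, a transmembrane semaphorin with thrombospondin repeats, stood at -0.35 on 1 probe set and at 0.15 on the other. The former was -0.02 without heterozygous embryo 2 and -0.65 without heterozygous embryo 3. Sema6d, a ligand of Plxna1 in the forming heart, gave 225, 244 and 212 in wild types and 194, 277 and 233 in heterozygotes. The heterozygotes spanned the whole range of the wild types, and the difference was 0.03 with an interval of -0.28 to 0.35. Sema7a, which has a lipid anchor and binds Plxnc1 and integrins, differed by 0.23 (interval -0.35 to 0.81), with 0.07 when heterozygous embryo 1 was left out and 0.47 without heterozygous embryo 2. Sema6b, another transmembrane member, was too dim to be tested.

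Plexins, the receptors of all these ligands, showed no separation of the genotypes on any of 15 tested probe sets. Over all tested probe sets 12.2% separated them, so few of 15 would do so at that share. The Eph receptors likewise had 0 of 18. By gene 4 differences were positive and 4 negative, from -0.12 to 0.21. Plxnb2, needed for closure of the neural tube, gave 413, 581 and 510 in wild types and 494, 498 and 396 in heterozygotes, a difference of -0.11 with an interval of -0.42 to 0.20. Plxnb1, the receptor of Sema4d, gave 149, 172 and 200 against 182, 197 and 169, so that the heterozygotes lay inside the range of the wild types, and differed by 0.08. Its dimmer probe set differed by 0.38, and the separate within-day differences were -0.05 (first) and 1.25 (second). Plxnd1, the endothelial receptor of Sema3e, gave 121, 124 and 89.7 in wild types and 98.4, 130 and 164 in heterozygotes. These overlapped, with heterozygous embryo 3 the highest and wild-type embryo 3 the lowest. The difference of 0.21 (limma adjusted p = 0.889) had opposite signs within days, -0.12 (first) and 0.86 (second).

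The A plexins, which pair with neuropilins, differed by -0.12 to 0.21. Plxna1 was at 175 ± 17.9 and 196 ± 13.4 (0.17) and Plxna4, a receptor for Sema3a, at 67.4 ± 23.2 and 75.2 ± 2.33 (0.21). Plxna2 was at 180 ± 11.1 and 165 ± 3.51 (-0.12) and Plxna3, an X-linked receptor for Sema3f, at 103 ± 20.9 and 97.3 ± 16.2 (-0.07; SD, n = 3 per genotype in each). Plxnc1 was at 97.7 ± 3.01 and 90.9 ± 6.67. None of these genes separated the genotypes, and their limma adjusted p lay between 0.854 and 0.960.

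Among Eph receptors the B group was negative in all 3 tested genes, and 4 of the 5 tested genes of the A group were positive. These are signs of the brightest probe sets, and those of Epha1, Epha4, Epha5 and Ephb3 turned in other settings. Over all named genes 47.3% were positive. Ephb4, the venous receptor of ephrin B2, gave 70.2, 77.9 and 65.7 in wild types and 71.8, 40.03 and 36.6 in heterozygotes. Heterozygous embryos 2 and 3 were below every wild type, and heterozygous embryo 1 lay among them. The log2 difference was -0.57 with an interval of -1.14 to -0.003 and a limma adjusted p of 0.793. It was -0.39 to -0.86 when any 1 array was left out. The 3 embryos with high Xist signal gave 70.2 to 77.9 and the 3 with low Xist signal 36.6 to 65.7, without overlap, and with Xist signal as a covariate the difference was -0.40 (limma adjusted p = 0.948). Ephb1, of axon and crest sorting, was at 143 ± 16.7 and 123 ± 13.5 (-0.22), and Ephb3, a receptor of B ephrins, at 219 ± 29.4 and 212 ± 43.7 (-0.06; SD, n = 3 per genotype in each).

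Epha4, which marks alternate hindbrain segments and binds ephrins of both groups, gave 247, 260 and 281 in wild types and 309, 267 and 227 in heterozygotes. The heterozygotes lay on both sides of all wild types, and the difference was 0.02 with an interval of -0.27 to 0.31. Its 5 tested probe sets spanned -0.32 to 0.17. Epha7, a receptor of the neural folds, was at 177 ± 31.99 and 192 ± 24.1 (0.13, interval -0.23 to 0.48), with probe sets from -0.14 to 0.22. Epha2, of the gastrulating embryo and early epithelia, was at 92.5 ± 9.62 and 76.6 ± 12.1 (-0.27, interval -0.66 to 0.11; SD, n = 3 per genotype in each). Epha5 differed by 0.26, with its other 3 tested probe sets all negative (-0.70 to -0.02), and Epha1 by 0.51 with an interval of -0.86 to 1.89. The latter rested on a value of 4.61 in wild-type embryo 2 against 33.7 and 36.0 in the other wild types, and without that array the difference was -0.32.

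Of the ephrins 7 of 8 were negative, with a median of -0.12, and none passed. Over all named genes 47.3% were positive. The median of the 8 ephrin genes relative to the wild-type mean was -0.17, -0.05 and -0.20 among the heterozygotes. Among the wild types, which lie around 0 by construction, it was 0.07, 0.01 and -0.07. Heterozygous embryo 2 thus lay above wild-type embryo 3. Efnb2, the arterial ligand of Ephb4 that also sits on crest and hindbrain cells, gave 873, 561 and 900 in wild types and 611, 801 and 647 in heterozygotes, with overlap and a difference of -0.16. It was -0.04 without wild-type embryo 3 and -0.38 without wild-type embryo 2. Its second probe set gave 320, 334 and 295 against 259, 298 and 202. Here heterozygous embryo 2 alone reached the wild-type range, and the difference was -0.34 with an interval of -0.66 to -0.02 and a limma adjusted p of 0.787. Efna5, a repellent ligand of the A receptors, gave 443, 460 and 461 against 440, 440 and 404. All heterozygotes were below all wild types by a narrow margin, with a difference of -0.09 and an interval of -0.28 to 0.11.

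Efna2, another A ligand, was at 167 ± 21.2 and 150 ± 10.04 on its brightest probe set (-0.15). Its dimmer probe set gave 75.0, 70.8 and 68.8 in wild types and 48.7, 36.0 and 63.3 in heterozygotes, without overlap. The difference there was -0.55, with a limma adjusted p of 0.781, and within days it was -0.77 (first) and -0.12 (second). Efna4 was at 115 ± 11.7 and 99.4 ± 8.74 (-0.21) and Efna3, the single ephrin with a positive difference, at 71.7 ± 12.8 and 78.7 ± 20.8 (0.11; SD, n = 3 per genotype in each). Efnb3, a ligand at the midline of the nervous system, differed by -0.10 and Efna1, an endothelial A ligand, by -0.01.

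Efnb1 is the X-linked ligand whose human counterpart is mutated in craniofrontonasal syndrome, and its signal was higher in the embryos with high Xist signal. The brightest probe set gave 182, 251 and 161 in wild types and 172, 123 and 151 in heterozygotes, which overlapped. The log2 difference was -0.40 with an interval of -0.82 to 0.02 and a limma adjusted p of 0.799. It was -0.22 without wild-type embryo 2, and -0.16 as the mean of all Efnb1 probe sets. The 3 embryos with high Xist signal gave 172 to 251 and the 3 with low Xist signal 123 to 161, without overlap. The same held on the other probe sets of Efnb1, at 158 to 191 against 142 to 151 and at 95.9 to 118 against 78.9 to 82.0. Of the high-Xist embryos 2 were wild type and 1 heterozygous. With Xist signal as a covariate the genotype difference on the brightest probe set was -0.28 (limma adjusted p = 0.948), and the dimmer ones were at 0.01 and 0.11. Over the array 5.16% of tested probe sets lay higher in all 3 high-Xist embryos, and 7.06% of those on the X chromosome did. Among the members 8 of 87 (9.20%) did, 3 of Efnb1 and 5 of other genes, none of them X-linked: the brightest of Epha2, Ephb4 and Sema4a and a dimmer one each of Efna1 and Sema6d. The pattern is therefore not particular to Efnb1. Neither probe set of Plxna3 separated the embryos in this way, and Plxnb3, also X-linked, was too dim to be tested.

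**Figure D3:**
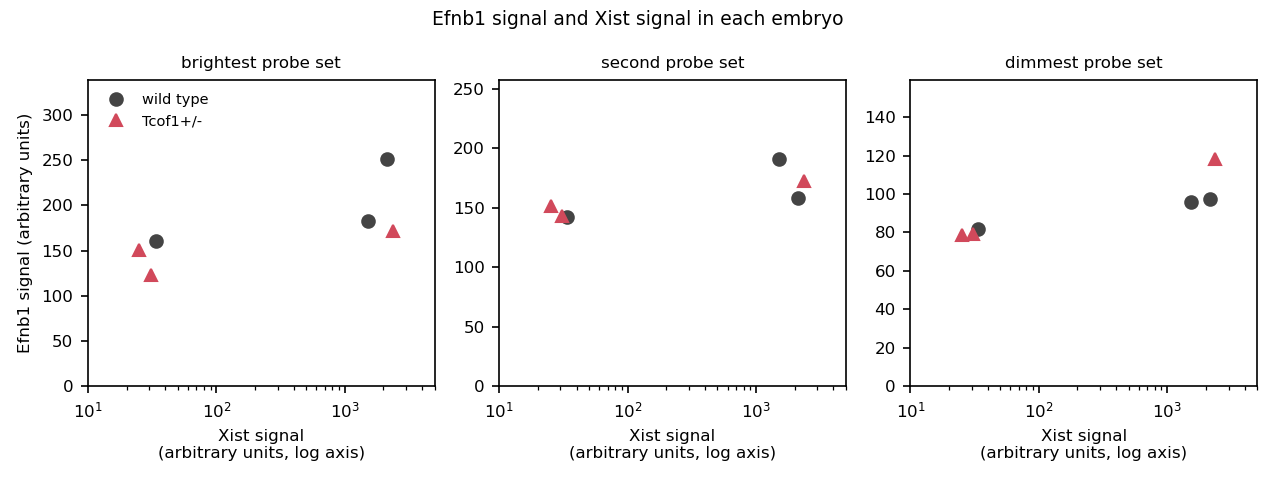
Efnb1 signal (y axis, arbitrary units, from 0) against Xist signal (x axis, arbitrary units, log scale) in the 6 embryos, 1 panel per Efnb1 probe set; circles are wild type, triangles Tcof1+/-. In each panel the 3 embryos with Xist signal of 1520 to 2358 lie above the 3 with 25.1 to 33.6.

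Set side by side, known ligand and receptor pairs gave differences of like and of unlike sign. For the arterial and venous pair they were -0.16 (Efnb2) and -0.57 (Ephb4), and for the pair of vessel repulsion 0.72 (Sema3e) and 0.21 (Plxnd1). For Sema3a and its receptor Nrp1 they were -0.16 and 0.42, and for Sema4d and Plxnb1 -0.29 and 0.08. The signs were not all stable, since Plxnd1 was at -0.12 on the first scan day alone and Plxnb1 at -0.026 without wild-type embryo 1. No pair had a member past the test, and the difference between the 2 sides of a pair was not tested.

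Probe sets of 1 gene often disagreed at this size of difference. Of the 24 genes with several tested probe sets 10 had differences of opposite sign. The spread was 1.38 on the log2 scale for Sema4a, 0.95 for Epha5, 0.80 for Sema3f, 0.55 for Plxnc1 and 0.50 for Sema5b. By contrast, all tested probe sets of Nrp1, Nrp2, Sema3c, Sema3e, Efna3 and Plxnb1 were positive and all those of Sema3a, Sema4f, Sema5a, Sema6a, Efna1, Efna2, Efnb1 and Efnb2 negative.

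**Figure D4:**
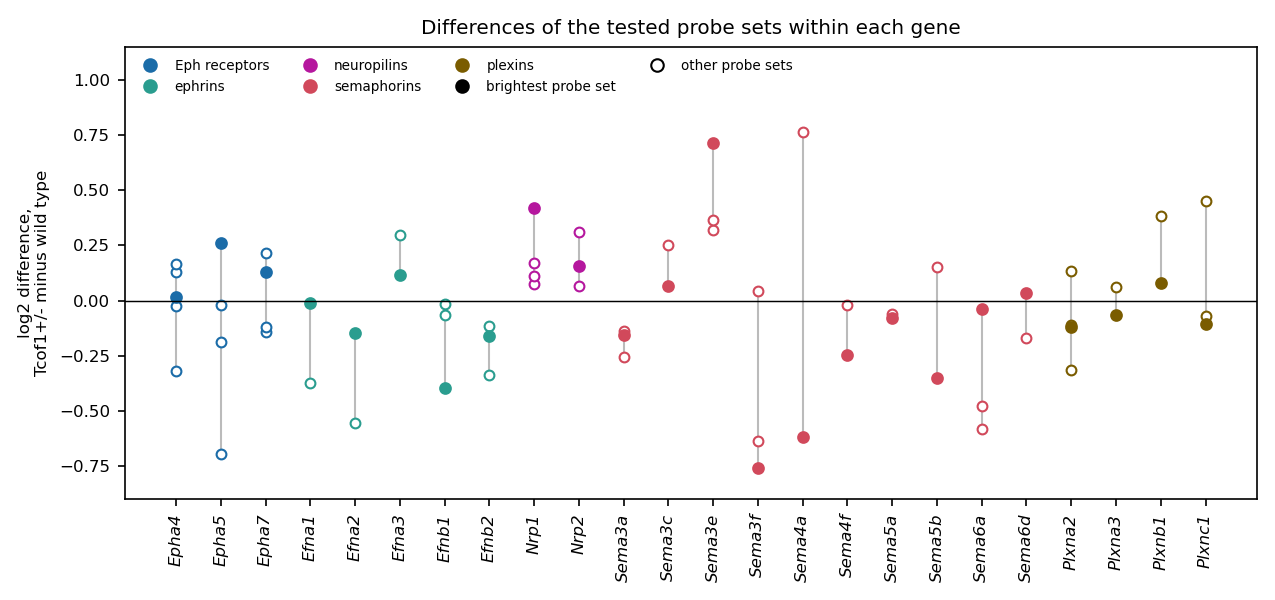
Log2 difference (y axis, heterozygous minus wild type) of every tested probe set in the 24 genes that have more than 1, with filled points for the brightest probe set and open points for the others; colours mark families. Of the 24 genes 10 straddle 0, and the widest spread, 1.38, is that of Sema4a.

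Another 9 of the 53 genes had no probe set bright enough to be tested. They were the receptors Epha3, Epha6, Epha8, Epha10 and Ephb6, the ligands Sema3b and Sema6b, Plxnb3 and the antisense transcript Plxna4os1. Their signals ran from 0.27 to 32.9 over all their probe sets and arrays. The highest was Sema3b, at 11.98, 10.2 and 9.07 in wild types and 32.9, 25.4 and 4.50 in heterozygotes, where heterozygous embryos 1 and 2 lay above all wild types and heterozygous embryo 3 below them. Sema3b, Epha2 and Efnb1 have been described as targets of p53 elsewhere, as have Unc5a and Unc5b, which are receptors for netrin. Of the 5 genes 3 were tested, with 1 positive and 2 negative differences and 0 past the test. Unc5b gave 328, 323 and 334 in wild types and 369, 385 and 365 in heterozygotes, without overlap, a difference of 0.19 with a limma adjusted p of 0.802.

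Other guidance genes and the partners of these receptors gave no call either. Of 33 further ligands and receptors (slits, netrins, repulsive guidance molecules, a chemokine, growth factors and their receptors) 27 were tested, 12 positive and 15 negative, with a median of -0.01 and 0 past the test in either direction. Vegfa, the growth factor that shares Nrp1 with Sema3a, gave 175, 172 and 180 against 97.2, 168 and 136, without overlap (log2 -0.43, limma adjusted p = 0.793). Of 36 signalling partners of Eph receptors and ephrins 34 were tested, 16 positive and 18 negative, with 0 past the test. Efs, an adaptor of Src family kinases read here by an x_at probe set, had the smallest p, at -0.27 (limma adjusted p = 0.754). The adaptor Grb10 followed at 0.11 (limma adjusted p = 0.810).

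Of 40 partners of plexins and neuropilins 36 were tested, 15 positive and 21 negative, with a median of -0.04 and 0 past the test. At an unadjusted p under 0.05 there were 7 of 36, against 1 of 27 and 1 of 34 in the preceding lists and 6.89% of all named genes. Crmp1, a collapsin response mediator protein that carries semaphorin signals to the cytoskeleton, gave 351, 350 and 346 in wild types and 266, 222 and 230 in heterozygotes. The wild types lay close together and above all heterozygotes, and the log2 difference was -0.55 with an interval of -0.78 to -0.31 and a limma adjusted p of 0.238. Gipc1, which binds the tail of Nrp1, gave 459, 357 and 424 against 275, 337 and 245, again without overlap (-0.54, adjusted p = 0.584).

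Markers of the tissues that carry these genes differed in both signs in the same arrays, and none passed the test. Over all named genes 47.3% of differences were positive, and 6.89% had a limma unadjusted p under 0.05. Of 14 neural crest markers 14 were tested and 12 were negative, 4 at an unadjusted p under 0.05, with a summed signal of 5152 to 5557 in wild types and 4191 to 4524 in heterozygotes. A sum, here and below, weighs the brightest markers most. Crabp1 alone gave 2484, 2313 and 2270 in wild types and 1651, 1723 and 1800 in heterozygotes (limma adjusted p = 0.0662). Of 10 forebrain and neural tube markers on the array 9 were tested and all 9 were negative, 7 at an unadjusted p under 0.05, with sums of 2678 to 2817 and 1931 to 2307, and Rax was too dim to be tested. Of 12 endothelial markers 11 were tested and 7 were positive, 2 at an unadjusted p under 0.05. Their sums were 1723 to 2135 and 1975 to 2030, and Pecam1 was too dim. The 6 tested hindbrain markers were 3 positive and 3 negative, 0 at an unadjusted p under 0.05 (1092 to 1279 and 1095 to 1354). Of 9 somite and presomitic markers 8 were tested and 6 were negative, 1 at an unadjusted p under 0.05 (1490 to 2029 and 1366 to 1548). Uncx was too dim. Of 8 heart markers 6 were positive, 2 at an unadjusted p under 0.05 (9185 to 10770 and 9834 to 12350).

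Blood and extraembryonic markers varied more between embryos. Of 7 primitive erythroid markers on the array 6 were tested and all 6 were negative, 2 at an unadjusted p under 0.05. The genotypes overlapped on all 6, and Epb42 was too dim. Sums were 5795 to 13660 in wild types and 312 to 11220 in heterozygotes. Heterozygous embryo 1 stood apart: Hbb-bh1 gave 3603, 6187 and 3046 in wild types and 146, 2565 and 4475 in heterozygotes. The 7 yolk sac endoderm markers had 1 positive and 6 negative differences, 0 at an unadjusted p under 0.05, with sums of 1833 to 9564 and 818 to 14830. Of 6 trophoblast and decidua markers on the array 3 were tested, with 2 positive and 1 negative difference (194 to 215 and 194 to 224). Of these 0 had an unadjusted p under 0.05, and Ascl2, Prl8a2 and Tpbpa were too dim. With Xist signal as a covariate the genotype difference was 0.37 for Nrp1, 0.67 for Sema3e and -0.67 for Sema3f. The part of tissue make-up or RNA quality in the values of Nrp1, Sema3e, Sema3f, Ephb4, Vegfa, Crmp1 and the ephrins was not tested.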

How the data were processed

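Groups and replicate numbers follow the titles of the 6 samples. The deposited values are linear intensities, 1 for each probe set on each array. GCOS, the scanner's software, is named per the submitters' processing notes, and neither its version nor its algorithm is stated there. On every array the 2% trimmed mean is 150, as computed from the values, and the medians are 21.0 to 25.6. Scan day and fluidics module come from instrument records, per the file headers, and are the other deposited fields used. No module held both genotypes, so module and genotype cannot be told apart. The 3 arrays per genotype limit the precision.

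Control probe sets (64) were dropped. Signals entered the fit as log2(signal + 1.87), a pseudocount at the 10th percentile, and the dimmest 40% by mean log2 value (signal under about 13.2) were not tested. The authors' scaling was kept. limma 3.58.1 (R 4.3.3; lmFit, eBayes with an intensity trend) was fitted with genotype as the sole term, two-sided, adjusted at 0.05 over 27022 probe sets, and was tested on simulated data. Gene names are those of the platform's annotation (34945 with 1 symbol, 932 with several, 9160 with none), and the RefSeq table of GRCm38.p6 changed 0 symbols. Start windows are RefSeq sequences of GRCm38.p6. Figures were drawn with matplotlib 3.10.9.

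The members and lists were chosen with earlier results of these data known. Members named were, in each family, the 3 brightest and the 3 with the smallest p in each direction, both neuropilins, X-linked members, those described as p53 targets, 4 ligand and receptor pairs and genes whose probe sets disagreed in sign by over 0.5. Other members were named after their values were seen. Of the other lists, the 2 genes with the smallest p qualified. Those of the marker lists are given by counts alone, except Crabp1 and Apoa1, and Hbb-bh1 was named after its values were seen. Alternatives were a pseudocount of 1 or of 7.03 (25th percentile), equal array medians, quantile normalization, a filter at 60% or none, no intensity trend, array weights, the replicate number or scan day as a block, Xist signal as a covariate, each array left out, and the mean of a gene's probe sets. The first scan day alone was added after seeing the data.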

Additional observations from a re-analysis of the deposited data

How the results depend on the processing

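No member passed limma at an adjusted p under 0.05 in any of 18 alternatives by probe set, in which the lowest adjusted p was 0.217, on the first scan day alone. The median difference of the member genes, -0.07, moved beyond its spread between embryos (0.02) with array weights (-0.051) and with Xist signal as a covariate (-0.037), and was -0.08 to -0.06 without any 1 array. The 8 of 87 member probe sets without overlap became 5 with equal array medians and 14 of 124 with no filter. They became 34 on the first scan day alone and 14 to 21 without any 1 array. Shares over all probe sets were not computed in these settings, so the counts show nothing particular to the members. Fewer arrays per group separate more readily by construction. The 22 calls over all probe sets became 0 without the intensity trend (limma, smallest adjusted p 0.0555), 14 with scan day as a block, 12 on the first scan day alone and 8 to 20 without any 1 array, and 9 with Xist added to the model, and the cause was not tested. With the replicate number as a block there were 10. Deviations of arrays with the same number correlated at -0.08, -0.11 and -0.02, and gave no sign that the numbers pair the embryos. Other differences between embryos, such as sex and blood content, enter these correlations. They therefore cannot show whether embryos of the same number shared a litter.

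Of 34 named genes tested, 25 kept their sign in every setting run of the 13 that keep every array or take a scan day, and 19 also without any 1 array; Epha1 and Sema4a were run in 12, being too dim for the filter at 60%. Signs turned with array weights for Sema4c (-0.011), with Xist signal as a covariate for Ephb3 (0.032), Sema4c (-0.0034) and Sema6d (-0.0055), and on the first scan day alone for Plxnb2 (0.018), Plxnd1 (-0.12) and Sema6d (-0.015). With the mean of all probe sets they turned for Epha4 (-0.0064), Epha5 (-0.16), Plxnc1 (0.092), Sema4a (0.074) and Sema6d (-0.068). Leaving out 1 array gave ranges across 0 for Efna3 (-0.075 to 0.30), Epha1 (-0.32 to 0.95), Epha4 (-0.090 to 0.13), Epha5 (-0.072 to 0.66), Ephb3 (-0.18 to 0.11), Plxna3 (-0.21 to 0.078), Plxna4 (-0.056 to 0.45), Plxnb1 (-0.026 to 0.18), Plxnb2 (-0.24 to 0.0030), Sema4b (-0.0037 to 0.37), Sema4c (-0.28 to 0.33) and Sema6d (-0.091 to 0.16). Dim probe sets limit what could be seen: 9 genes were not tested.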
